A study of Mus musculus with 25 samples.

Results

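The joins described here connect a Cas9-cut bait to the 24 bases that end on the first base of the first Ter element of a reporter cassette, with the joined DNA running leftward, away from the Ter array. Ter elements are the binding sites of Tus, a bacterial protein that blocks replication forks when bound. A junction belonged to the set where its strand was minus, its position lay in the 24-base window and its read reached at least 20 bases of unique sequence left of the array. Of 11867 junctions in 10 groups, 501 were leftward in the window and 485 of them reached far enough, 482 with Tus, 3 with I-SceI and 0 with EV. The 16 others lacked only the reach.

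The cells were mouse embryonic stem cells grown on feeder cells, carrying a 4-kb 1xGFP cassette in the ROSA26 locus, and genomic DNA was taken 48 h after transfection. The bait cut, made by Cas9 in every group, lay 30 kb from the cassette, and junctions were read by LAM-HTGTS, which amplifies linearly from a primer beside the bait and sequences what is joined to it. Tus was tested in BRCA1del/exon11 cells with siBLM, siBRCA1, siFANCM or siLuciferase (3 samples each). It was also tested in BRCA1flox/exon11 cells with siFANCM (3 samples) and with siBLM, siBRCA1 or siLuciferase (2 samples each). The nuclease I-SceI and the control labelled EV were tested in BRCA1del/exon11 cells with siFANCM (2 samples each). The labels do not say whether the replicates were separate cultures, nor how many clones each genotype stands for, so the p-values below speak only of library-to-library spread, part of which could be technical. Each sequencing run of a group was taken as 1 library, which gave 25 libraries in runs A to D with 148 to 933 junctions each. Those of run D held 148 to 261.

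As background, a fork that meets Tus bound to Ter stalls, and a broken end that arises there can be joined to another broken end by end joining. BRCA1 acts in homologous recombination and in the protection of stalled forks, BLM is a RecQ helicase that unwinds recombination intermediates, and FANCM is a DNA translocase that remodels stalled forks. siLuciferase targets no mouse gene and is the usual control siRNA. Where both ends carry the same few bases at the join, these are called microhomology. A join with neither shared nor added bases is blunt.

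The label of the set was checked against the reads. Bases of the window are numbered here from 1 (farthest from the array) to 24, and in the reads base 24 was already the first base of the first Ter element, so the window holds 23 bases of the spacer before the element and 1 base of the element. At the window's edges, 16 joins lay on base 1 and 15 placed leftward joins on the base just left of it. Likewise 30 joins lay on base 24, and 31 placed leftward joins on the next base. A read runs from the bait into the window, entering at the join and going on toward base 1, and the sequences below are written in that direction. The position of a join is the last cassette base that the read matches, microhomology included. The end of the bait, called the cut in this report, was inferred from the reads and not taken from a known cut coordinate. The window and the bait end are shown because every join below is a splice of these 2 sequences, and the capital marks the base that belongs to the first Ter element.
Window, from base 24 to base 1: Tatcgatatatgagcgttatccct
Bait end, the last 60 bases up to the cut: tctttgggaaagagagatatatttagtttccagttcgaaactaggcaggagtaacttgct

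The pairs of ends found in the most libraries are shown next, each by its most frequent splice. A splice is written as 20 bases of bait, the microhomology in capitals and the window as far as base 1.
Base 18, bait kept to the cut: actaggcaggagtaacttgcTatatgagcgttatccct
Base 14, 2 bait bases missing: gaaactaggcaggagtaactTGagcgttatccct
Base 13, 9 bait bases missing: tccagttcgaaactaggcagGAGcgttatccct
Between base 18 and the uncut bait end, 14 joins were seen in 11 libraries of 6 groups, and 9 of the 14 shared the single T. Between base 14 and the bait end 2 bases short of the cut, 13 joins were seen in 11 libraries, and 11 of them shared TG. The third pair of ends gave 13 joins in 10 libraries, 9 of them sharing GAG, and was tied in libraries with base 20 and the bait end 38 bases short of the cut, which gave 10 joins. The same pairs of ends thus recurred across libraries and in both genotypes. The first pair of ends gave 10 BRCA1del and 4 BRCA1flox joins, the second 10 and 3, and the third 8 and 5. The exact splices shown made up 7 and 2, 8 and 3, and 5 and 4 of these, in 9, 10 and 9 libraries. Within libraries no read name or read sequence was repeated.

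A pair of longer words shared by bait and window is shown as well, picked after their counts were seen because they are the longest that recurred.
Base 20, 38 bait bases missing: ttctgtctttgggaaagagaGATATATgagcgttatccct
Base 22, 22 bait bases missing: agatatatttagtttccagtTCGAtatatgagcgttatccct
The 7-base word GATATAT, the only shared word longer than 4 bases between the last 60 bait bases and the window, was used by 10 joins in 10 libraries, 4 BRCA1del and 6 BRCA1flox, and in all 8 Tus groups. The 4-base word TCGA was used by 8 joins in 8 libraries, 5 BRCA1del and 3 BRCA1flox. Of the 11 maximal places of a shared 3-base word, 8 were used, by 20 joins in all. Most pairs of ends were found in a single library: the 465 Tus joins with a called structure fell on 245 pairs of ends, of which 167 were found in 1 library and 18 in 5 or more libraries.

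Nearly all window joins came from Tus libraries. In BRCA1del cells with siFANCM, Tus gave 71 window joins among 1326 junctions (5.35%), against 3 among 1702 with I-SceI (0.176%) and 0 among 468 with EV, which allows a share of up to 0.641%. These totals hold only junctions mapped to the cassette, so they are shares of cassette junctions and not of all joins in the genome. Scaled to the leftward joins of the array window that could be placed in 1 repeat, the share was 16.2%, 14.8% and 14% in the 3 Tus libraries and 0% and 9.38% in the 2 I-SceI libraries. The I-SceI shares rest on 39 and 32 placed joins. The denominators are unlike: 1 of 71 placed I-SceI joins lay in the rest of the first Ter element, against 166 of 461 with Tus. In this share, every Tus library lay above both I-SceI libraries. The difference of the means was 10.3 percentage points (exact permutation p = 0.10, two-sided, the smallest that 3 against 2 libraries can give). It moved with single runs, to 5 percentage points without run A and 15.1 without run C. All 3 I-SceI joins came from run C. They lay at bases 4, 6 and 14, the first with 1 inserted base and the bait kept to the cut, the second with 2 bases of microhomology and 42 bait bases missing, and the third with 12 inserted bases and 25 bait bases missing. With 1 EV join among the placed leftward array joins, EV has no usable share on this scale.

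Within the Tus libraries, the window held more joins per base than the sequence left of it and fewer than the Ter element to its right. A library had 6 to 45 window joins (median 23). Per base, the window took 0.649% ± 0.221 of the placed leftward array joins, the remaining 22 bases of the first Ter element 1.50% ± 0.295, and the 24 bases left of the window 0.281% ± 0.119, scaled to the same total (SD, n = 21 libraries). The window lay above the 24 bases to its left in 21 of 21 libraries, by 0.367 percentage points per base, and below the first Ter element in 21 of 21 libraries, with a difference of -0.851 (sign-flip permutation test over libraries, adjusted p = 4e-05 for each, from p = 2e-05, the smallest the resampling can give). The counts were 482 in the window, 1038 in the rest of the first Ter element and 215 in the 24 bases to the left. Among reads with at least 67 aligned cassette bases, long enough for any of the 3 stretches, the differences were 0.332 and -0.955 percentage points per base (sign-flip permutation test, adjusted p = 4e-05 for both).

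**Figure D1:**
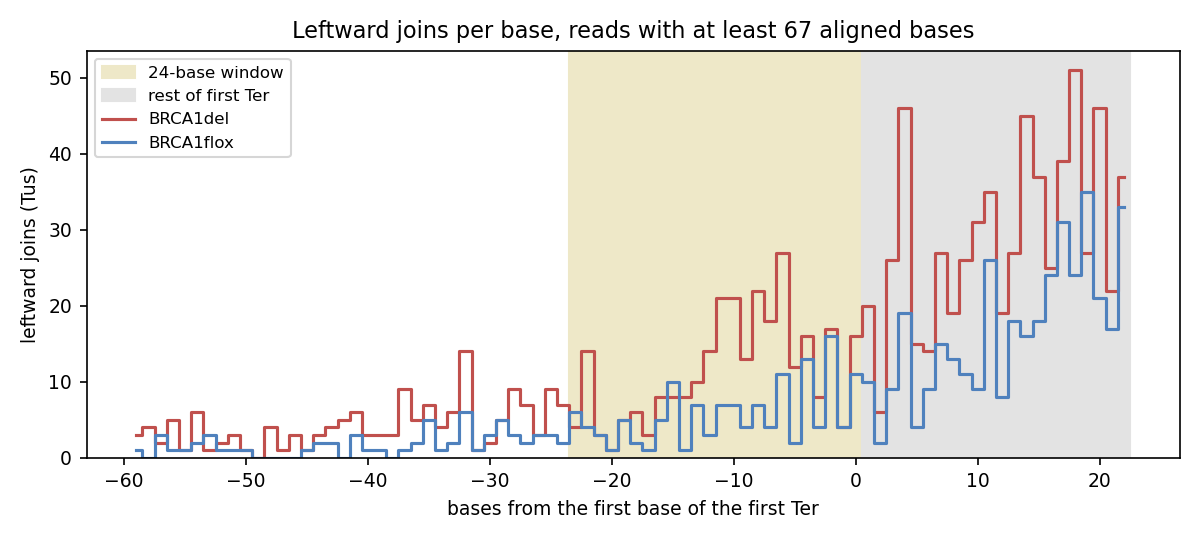
Number of leftward Tus joins at each base, against the distance in bases from the first base of the first Ter element, for reads with at least 67 aligned cassette bases; red is BRCA1del, blue is BRCA1flox, yellow shading marks the 24-base window and grey the rest of the first Ter. Joins were sparse on the far left, more frequent in the right part of the window and most frequent inside the Ter element.

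The array repeats the same spacer and Ter elements 117 bases further on, and the window's copy there held fewer joins. Among Tus reads with at least 161 aligned bases, long enough to be placed in either copy, 163 joins lay in the window and 34 in its copy. By genotype these were 120 and 28 joins in BRCA1del cells and 43 and 6 in BRCA1flox cells. The window held more in 17 of the 21 libraries and the same number in the other 4. This comparison is a description with no test.

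Joins were not spread evenly over the window. The last 12 bases, next to the Ter element, held 320 of the 482 Tus joins (66.4%), and the first 12 held 162. In BRCA1del cells the last 12 bases held 68.8% of 321 joins and in BRCA1flox cells 61.5% of 161, with a median position of base 15 in both. Single libraries ranged from 16.7% (1 of 6 joins, BRCA1del siFANCM run D) to 93.8% (15 of 16 joins, BRCA1del siBRCA1 run D). The 5 bases with the most joins were base 18 with 44, base 16 with 37, base 14 with 34, base 22 with 33 and base 13 with 32. Base 18 was used in 16 of the 21 libraries, and bases 16, 14, 22 and 13 in 15, 16, 17 and 14 libraries.

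From base 14 on, neighbouring bases alternated. The 6 even-numbered bases from 14 to 24 held 30 to 44 joins each, the 5 odd-numbered bases between them 9 to 24. Both genotypes had the alternation, with a mean of 23.0 joins per even base and 11.8 per odd base in BRCA1del cells and of 11.8 and 4.0 in BRCA1flox cells. It was strongest among joins with microhomology of 2 or more bases, of which 74 lay on the even bases and 5 on the odd ones. Blunt joins were more level, with 31 on the 6 even bases and 22 on the 5 odd ones. In the read direction shown above, the bases 24, 22, 18, 16 and 14 are T, the same base that ends the bait at the cut, and base 20 is G. A base shared with the bait counts toward the position of a join. How far this makes the alternation was not tested.

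**Figure D2:**
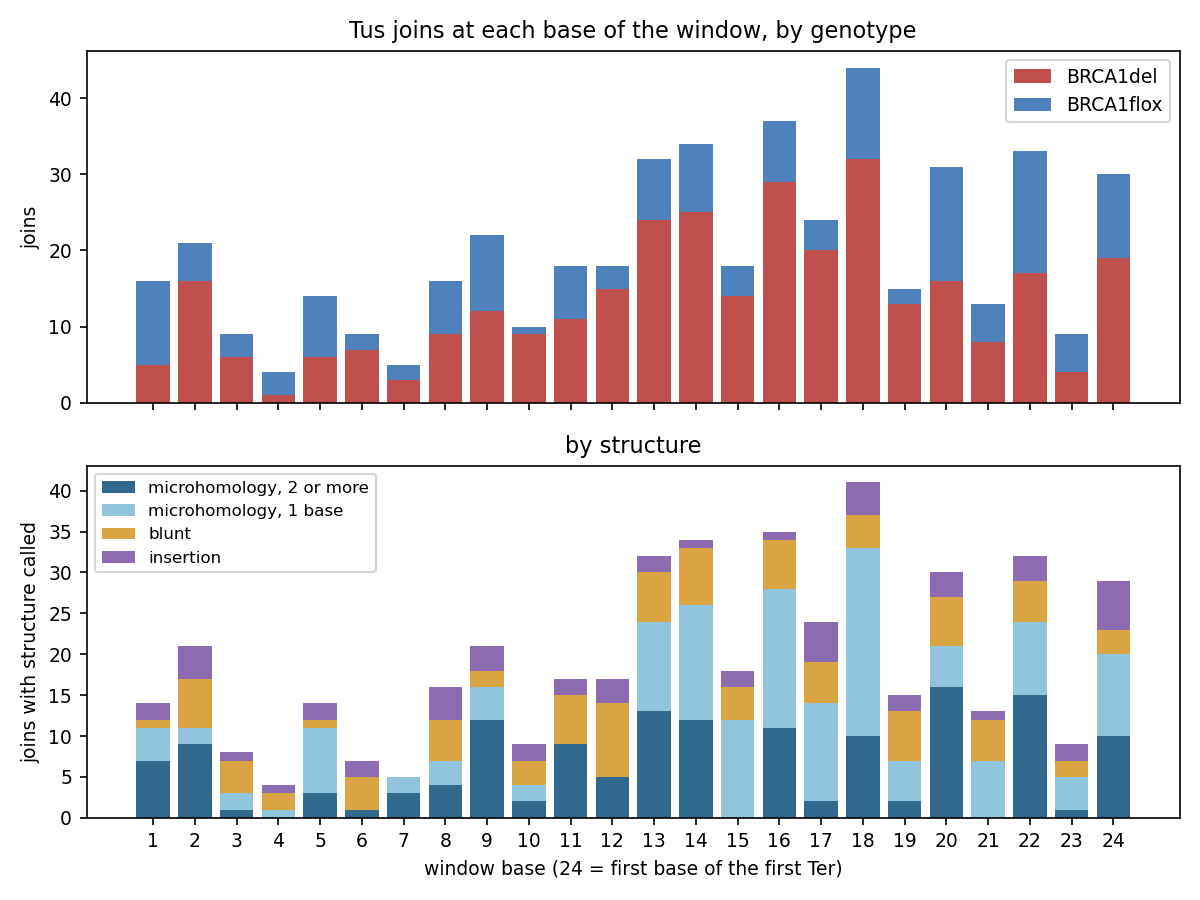
Number of Tus joins at each of the 24 window bases, by genotype in the upper panel and by join structure, for joins with a called structure, in the lower panel. The tallest bar is base 18 with 44 joins, and microhomology of 2 or more bases follows the alternation of even and odd bases from base 14 on.

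BRCA1del cells had a larger share of their placed leftward array joins in the window than BRCA1flox cells. The share averaged 17.7% ± 4.32 over 12 BRCA1del libraries, from 10.5% to 25.5% with a median of 17.4%, and 12.7% ± 5.37 over 9 BRCA1flox libraries, from 5.88% to 19.7% with a median of 10.8% (SD). The ranges overlapped, but averaged over the 4 siRNAs the means were 17.7% and 12.9%, a difference of 4.76 percentage points (exact permutation test of genotype labels within siRNAs, two-sided, p = 0.005, adjusted p = 0.0101 over 4 genotype tests). The permutation did not hold the run fixed, here and for join structure below. Among Tus libraries, those of runs A and B were mostly BRCA1del, so run-matched pairs are given as well. With all leftward joins of the array window, placed or not, as the denominator, the difference was 4.93 percentage points (exact permutation p = 0.00025). This p is unadjusted, because only the share was recomputed there, and its counterpart above is the unadjusted 0.005. Median aligned cassette length of the window joins was 84.5 to 159 bases in the BRCA1del libraries and 90 to 169 in the BRCA1flox libraries.

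Shares by siRNA, in the plot of shares by library, showed where the genotypes lay apart. With siBLM the libraries gave 18.4%, 21.3% and 25.5% in BRCA1del cells against 18.9% and 5.88% in BRCA1flox cells, so that a single BRCA1flox library lay inside the BRCA1del range. With siBRCA1 they gave 20.1%, 17.1% and 23.2% in BRCA1del cells against 19.7% and 19.2% in BRCA1flox cells, and the groups overlapped. With siFANCM the 16.2%, 14.8% and 14% of BRCA1del cells all lay above the 8.24%, 13.8% and 10.8% of BRCA1flox cells. With siLuciferase, 13.6%, 17.8% and 10.5% in BRCA1del cells likewise lay above 8.07% and 9.90% in BRCA1flox cells. Among the 8 pairs of libraries with the same siRNA and run (runs C and D), BRCA1del was higher in 7, by 4.74 percentage points on average, and the adjusted p was 0.0625 (exact sign-flip test). Without run D the difference was 3 percentage points (exact permutation, adjusted p = 0.14).

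**Figure D3:**
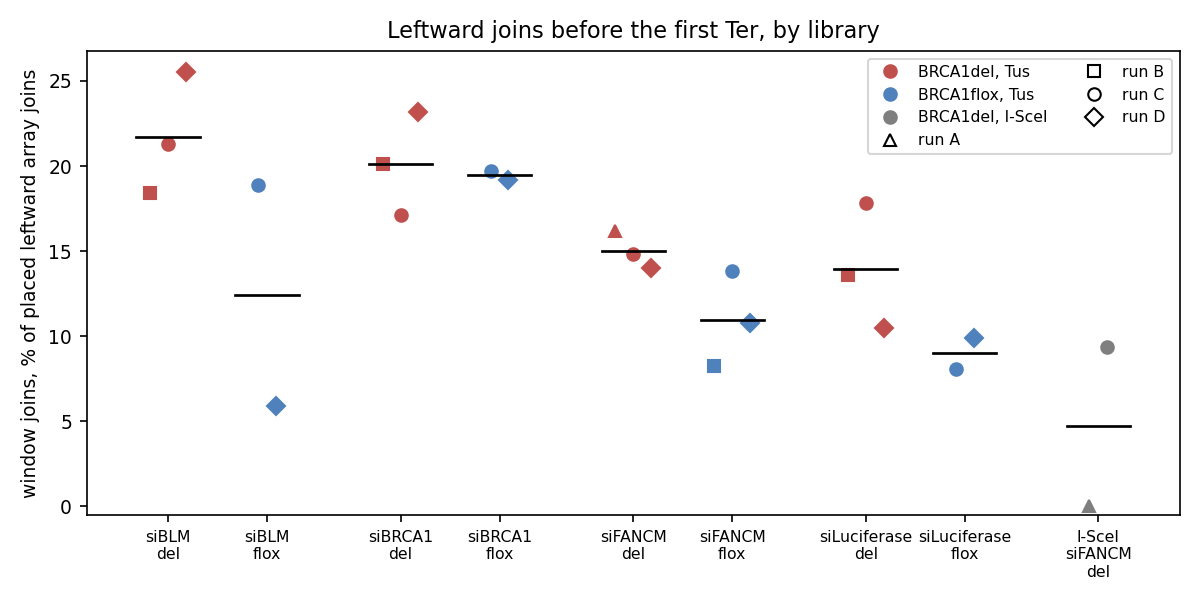
Window joins as a percentage of placed leftward array joins in each library (vertical axis), by siRNA and genotype (horizontal axis), with Tus in red for BRCA1del and blue for BRCA1flox and I-SceI in grey; symbols mark the sequencing run and black lines the mean of a group. The BRCA1del mean lies above the BRCA1flox mean for each siRNA, by least with siBRCA1 (20.1% and 19.4%).

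The siRNA differences did not pass the test. Averaged over the genotypes, the window share was 17.1% with siBLM, 19.8% with siBRCA1, 13.0% with siFANCM and 11.5% with siLuciferase. Set against siLuciferase, whose libraries all 3 comparisons share, siBRCA1 was 8.32 percentage points higher (exact permutation of siRNA labels within genotypes, two-sided, p = 0.0333, adjusted p = 0.10), siBLM 5.61 (adjusted p = 0.175) and siFANCM 1.49 (adjusted p = 0.34). Without run C the siBLM difference was 2.97 percentage points (exact permutation, adjusted p = 0.667). The smallest p the design allows is 0.0167 for siBLM and siBRCA1 and 0.005 for siFANCM. Over 3 comparisons, a p of 0.0167 standing alone adjusts to 0.05, so neither siBLM nor siBRCA1 could pass alone. With all leftward joins of the array window as the denominator, siBRCA1 reached that smallest p. It was 6.5 percentage points higher there (exact permutation, adjusted p = 0.05), siBLM 4.84 (adjusted p = 0.075) and siFANCM 1.23 (adjusted p = 0.23). By genotype, the siBRCA1 difference was 6.18 percentage points in BRCA1del cells and 10.5 in BRCA1flox cells. Tests of whether an siRNA difference was unlike in the 2 genotypes, 12 in all over the window share and the 3 structure classes, gave a lowest adjusted p of 0.30 (exact permutation, lowest unadjusted p = 0.0333).

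Structure was called for 468 of the 485 joins (96.5%), 465 of them with Tus. Of these 465, 148 joins (31.8%, Wilson 95% interval 27.8% to 36.2%) had microhomology of 2 or more bases, 157 (33.8%) a single shared base, 102 (21.9%) were blunt and 58 (12.5%) had an insertion. Microhomology was short, with 98 joins at 2 bases, 29 at 3, 10 at 4, 1 at 5 and 10 at 7, the last all GATATAT. The most frequent word of 2 or more bases was TA, with 40 joins. Of the 58 insertions, 24 were 1 base long, 27 were of 2 to 10 bases and 7 were longer, up to 32 bases. The inserted single base was A in 9 joins, T in 9, G in 4 and C in 2.

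Averaged over the siRNAs, BRCA1del joins had less microhomology and were more often blunt than BRCA1flox joins. Microhomology of 2 or more bases was found in 26.8% ± 12 of the joins of a BRCA1del library (n = 12), from 0% to 45.5% with a median of 25.8%, and in 44.6% ± 12 of those of a BRCA1flox library (n = 9), from 30.3% to 70.0% with a median of 46.7%. Averaged over siRNAs the difference was -18.3 percentage points (exact permutation within siRNAs, two-sided, p = 0.0029, adjusted p = 0.0101). Blunt joins made up 25.9% ± 16.7 in BRCA1del libraries, from 3.33% to 60% with a median of 27.9%, and 10.3% ± 8.07 in BRCA1flox libraries, from 0% to 21.2% with a median of 13.3%. That difference was 15.5 percentage points (exact permutation, p = 0.0087, adjusted p = 0.0116). Over the 8 pairs matched for siRNA and run, microhomology was lower in BRCA1del in 7 and blunt joining higher in 7 (exact sign-flip, adjusted p = 0.0469 for both).

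These calls rested on the choice of the microhomology class and on run D. With a minimum of 1 base the microhomology difference was -10.7 percentage points (exact permutation, adjusted p = 0.158), with a minimum of 4 bases -3.77 (adjusted p = 0.0879), and without run D it was -11.4 and the blunt difference 13.0 (adjusted p = 0.0741 for both). Pooled over libraries, joins with exactly 1 shared base were 35.7% of 308 in BRCA1del cells and 29.9% of 157 in BRCA1flox cells. Insertions averaged 11.2% ± 8.93 in BRCA1del libraries and 16.0% ± 3.46 in BRCA1flox libraries, a difference that did not pass the test (exact permutation, -4.80 percentage points, adjusted p = 0.168).

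The genotypes lay farthest apart in blunt joining with siFANCM, an siRNA singled out after the values were seen. Blunt joins were 34.3%, 42.3% and 60% of the window joins in BRCA1del siFANCM libraries, against 13.3%, 0% and 14.3% in BRCA1flox siFANCM libraries, and the groups did not overlap. The run D library at 60% rests on 5 called joins. In BRCA1del cells with siLuciferase the libraries had 3.33%, 14.8% and 9.09% blunt joins, against 14.3% and 0% in BRCA1flox siLuciferase libraries, and these overlapped. With this control siRNA the blunt means lay close together, at 9.08% in BRCA1del and 7.14% in BRCA1flox. Pooled over libraries their order was reversed, with 6 of 68 called joins (8.82%) in BRCA1del and 3 of 31 (9.68%) in BRCA1flox. With siBLM the blunt shares were 36.4%, 33.3% and 9.09% in BRCA1del cells against 16.1% and 0% in BRCA1flox cells. With siBRCA1 they were 28.9%, 26.9% and 12.5% against 21.2% and 13.3%. In microhomology the largest gap was with siLuciferase, where BRCA1del libraries had 33.3%, 25.9% and 18.2% and BRCA1flox libraries 47.6% and 70.0%.

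**Figure D4:**
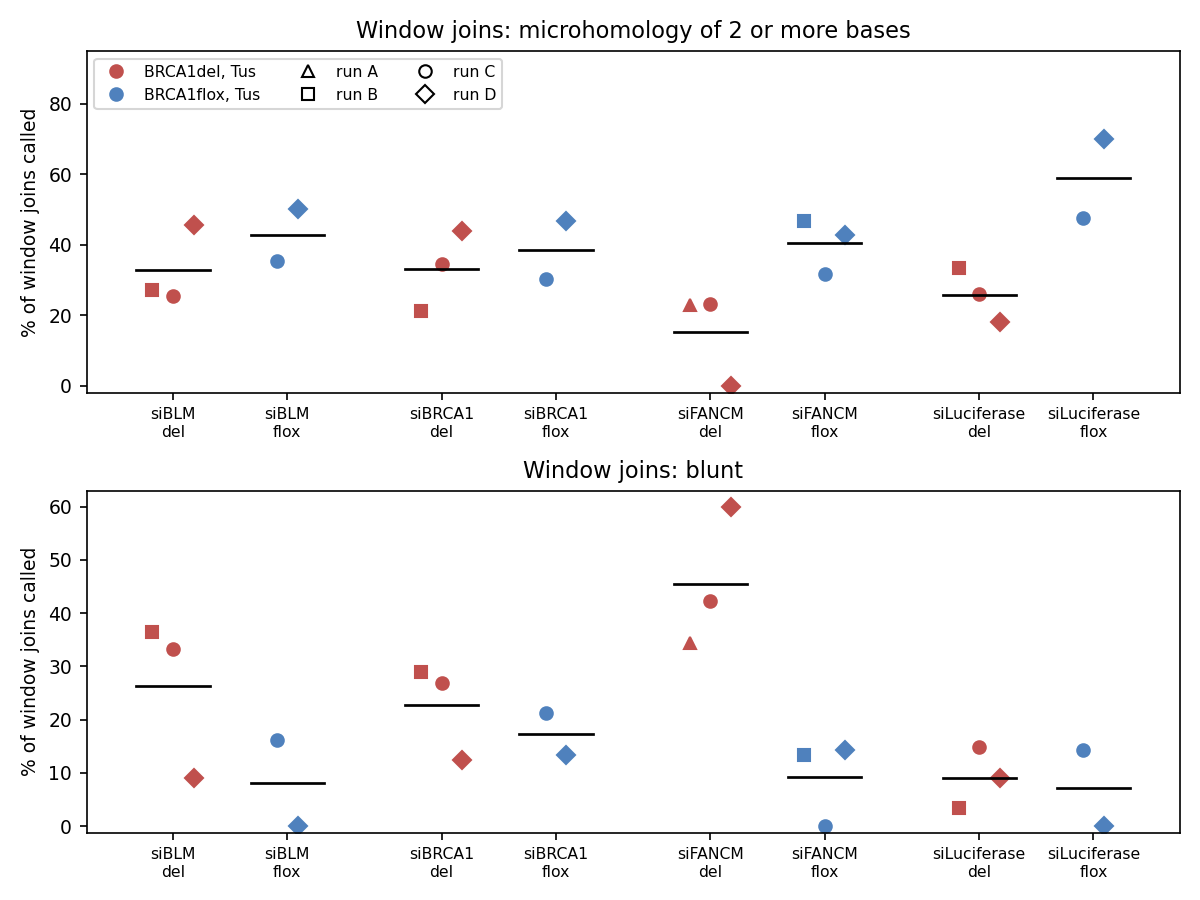
Percentage of window joins with a called structure that had microhomology of 2 or more bases (upper panel) or were blunt (lower panel), for each Tus library by siRNA and genotype; red is BRCA1del, blue is BRCA1flox, symbols mark the run and black lines the group means. The BRCA1del mean is below the BRCA1flox mean for microhomology with each siRNA and above it for blunt joins, the latter most with siFANCM (45.5% and 9.21%).

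Window joins had less microhomology than joins inside the first Ter element of the same libraries. Microhomology of 2 or more bases was found in 34.4% ± 14.8 of window joins and in 43.6% ± 13.5 of joins in the rest of the element (SD, n = 21 libraries). The window was lower in 20 of 21 libraries, by 9.23 percentage points on average (difference -9.23, sign-flip permutation test, adjusted p = 0.00029). When single shared bases were counted too, the difference was -0.496 (sign-flip permutation, adjusted p = 0.902). The window and the element differ in sequence, and so in the bases they can share with the bait. How far this makes the difference was not tested. Blunt shares of 19.2% ± 15.5 in the window and 18.7% ± 7.59 in the element differed by 0.474 percentage points (sign-flip permutation, adjusted p = 0.886), with the window higher in 11 of 21 libraries. Joins in the element showed genotype differences of the same direction, with microhomology in 37.6% ± 8.70 of joins in BRCA1del and 51.7% ± 15 in BRCA1flox libraries. Blunt joins in the element were 22.5% ± 5.14 in BRCA1del and 13.7% ± 7.60 in BRCA1flox libraries. Whether the genotype difference is larger in the window than in the element was not tested.

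The bait side of the joins was mostly close to the cut. The median Tus window join lacked 9 bait bases (interquartile range 3 to 26, highest 118), and 72 of 465 (15.5%) kept the bait to the cut. BRCA1del joins lacked a median of 8 bases, with an interquartile range of 2 to 22.25, and library medians ran from 4 to 17. BRCA1flox joins lacked a median of 12 bases, with an interquartile range of 4 to 32, and library medians ran from 5 to 28. The library medians overlapped, and this is a description with no test. By structure, joins with microhomology of 2 or more bases lacked a median of 15.5 bait bases and only 2 of 148 kept the bait to the cut, whereas blunt joins lacked 7.5 and joins with a single shared base 8, of which 36 of 157 kept the bait to the cut. The bait ends in ct, which the window in read direction holds only at bases 2 and 1. The sequences thus left little room for such microhomology at the cut, and the contrast was not tested. Joins inside the first Ter element lacked a median of 10 bait bases (interquartile range 3 to 25).

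**Figure D5:**
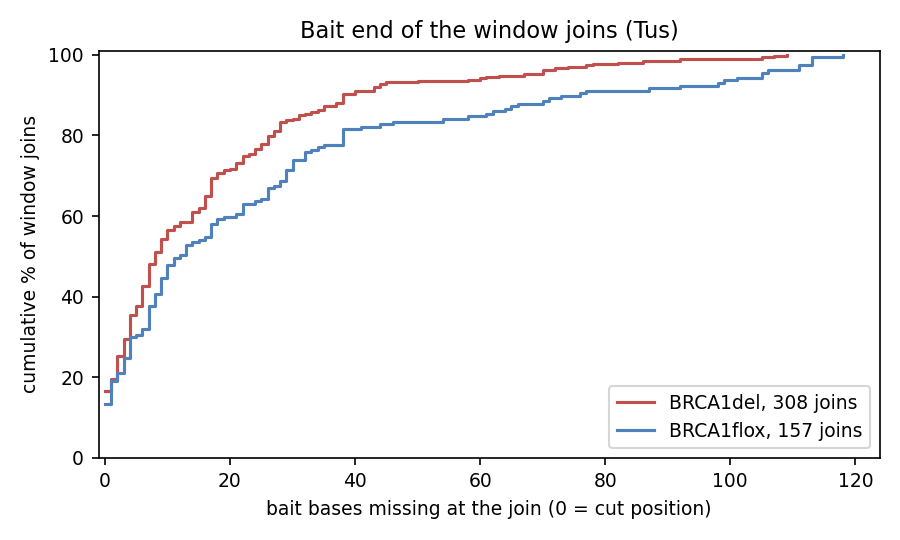
Cumulative percentage of window joins (vertical axis) against the number of bait bases missing at the join (horizontal axis), pooled over Tus libraries, with 308 joins for BRCA1del in red and 157 for BRCA1flox in blue. Both curves climb steeply near the cut, and the BRCA1del curve lies above the BRCA1flox curve over most of the range, with medians of 8 missing bases in BRCA1del and 12 in BRCA1flox.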

How the data were processed

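Per the labels, LAM-HTGTS libraries were made after sonication with XbaI blocking and sequenced on a MiSeq. Each group came as a single deposited table that lists junctions, 1 to a line. Per the file headers it gives a junction's position and strand, both ends of the alignment, the read's name and its bases, and no other values such as counts or scaling. The submitters' processing notes name Bowtie2 and mm9, while filters and duplicate removal are not given in the sources used here. Positions are 1-based in a cassette reference, not in a genome build. The window is 3025 to 3048 and a read had to begin at 3005 or lower. The rebuilt sequence places the first Ter at 3048 to 3070.

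Samples of a group share a table, so the run in the read name was taken as the library. There were as many runs as samples in each of the 10 groups, but nothing ties a run to a labelled replicate. The main share is of leftward joins at 3025 to 3276 that begin at 3005 or lower.

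The cassette was rebuilt from the reads by majority vote over 5 passes. The bait was followed base by base from the primer, and its end was set where no next base held a majority of the reads. Missing bait bases are counted from that point. Bait and cassette parts of a read were each grown from an anchor match of 10 and 12 bases. Bases in both parts are microhomology, counted from 2 bases, and bases in neither are an insertion. The caller was run on simulated joins, with the outcome not given here. The simulation did not cover the shortest cassette parts (32 bases) or the longest bait losses (118 bases) of the window joins. Of 234 window joins with an adapter in the read, the aligned length equalled the distance from join to adapter in 186 (79.5%).

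Tests were two-sided, over libraries, with Benjamini-Hochberg adjustment within 4 genotype, 3 siRNA and 4 neighbour comparisons and a threshold of 0.05. Sign-flip tests over 21 libraries used 100000 resamples. Wilson intervals (95%) and the upper limit of 3 counts for a count of 0 cover counting error only, since amplified reads are not independent molecules. Python 3.11.15, scipy 1.17.1 and statsmodels 0.14.6 were used. The named bases are the 5 with the most Tus joins, and the named joins the 3 pairs of ends found in the most libraries, with ties broken by the number of joins and then by position. The alternatives were another denominator, reach, microhomology minimum or read length, repeated joins counted once, run-matched pairs and leaving out each run. The set, its window and the tests were chosen with earlier results of these data known.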

Additional observations from a re-analysis of the deposited data

How the results depend on the processing

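No result changed direction under the alternatives, and 86 of 93 recomputed values stayed on the same side of the threshold. Part of the 86 could not have crossed it. The Tus against I-SceI comparison has a smallest possible p of 0.1 (exact permutation). The run-matched siRNA tests have only 4 or 5 pairs. Staying on the same side says nothing of stability there. The exceptions, 7 values whose results had passed in the main setting, all concern the genotype tests and 1 neighbour test. In run-matched pairs the window share differed by 4.74 percentage points and no longer passed. With microhomology from 1 base, the genotype difference was -10.7 and the difference from the first Ter element -0.496, and with a minimum of 4 bases the genotype difference was -3.77. When each run was left out in turn, the differences between BRCA1del and BRCA1flox ran from 3 to 6.56 percentage points for the window share, from -26.4 to -11.4 for microhomology and from 13.0 to 17.4 for blunt joins, and the lowest size of each, without run D, did not pass. The causes were not tested. Leaving out run C or run D leaves 13 Tus libraries either way. Without run C the differences were 6.56, -26.4 and 17.4, and all of them passed (exact permutation, adjusted p = 0.0247, 0.0247 and 0.0412). Over the same omissions, insertions ran from -6.04 to -3.20, siBRCA1 from 7.25 to 9.47, siBLM from 2.97 to 7.52, siFANCM from 1.18 to 2.07 and Tus against I-SceI from 5.00 to 15.1. With a reach of at least 40 bases, the last difference was 8.92 (exact permutation p = 0.30). Apart from the run-matched pairs, no paired analysis was possible because the tables carry no replicate number to pair by. The run-matched pairs share only an siRNA or genotype and a run. Depth limits the run D libraries most, with 5 to 16 called window joins each.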
